A study of Mus musculus with 16 samples.

Results

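The early lymphoid genes described here are 10 mouse genes, Dntt, Rag1, Rag2, Il7r, Vpreb1, Igll1, Ebf1, Blnk, Cd79a and Cd79b, of 20284 gene symbols with a probe on the array. They were chosen by name, and 12 probes were matched to them. Gene expression was measured in 8 groups of 2 single-colour arrays, 16 arrays in all. The groups were monocyte and dendritic cell progenitors (MDPs) of Irf8-deficient (Irf8KO) and of wild-type (WT) mice, common monocyte progenitors (cMoPs) of Irf8KO and of WT mice, and cells of the 32Dcl.3 line that carried C/EBPalpha, IRF8, both factors, or empty vectors. MDPs and cMoPs were sorted from bone marrow. The 32Dcl.3 cells are an established mouse myeloid line that was grown in WEHI3B conditioned medium, infected with retroviral vectors, and collected 3 days after transduction. The sort gates, the age and strain of the mice, and the number of animals behind an array are not given in the sources used here. The 2 arrays of a group come from 2 experiments, so p-values measure the spread between these arrays.

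Early lymphoid progenitors assemble antigen receptor genes by V(D)J recombination, in which the Rag1 and Rag2 proteins cut the DNA and terminal deoxynucleotidyl transferase, the product of Dntt, adds untemplated nucleotides at the joints. In the B lineage the transcription factor Ebf1 sets up the program, Il7r receives interleukin-7, and Vpreb1 and Igll1 form the surrogate light chain that pairs with the first heavy chain in the pre-B cell receptor. Cd79a and Cd79b are the signalling chains of that receptor, and Blnk is the adaptor that carries its signal onwards. The transcription factors IRF8 and C/EBPalpha act in myeloid lineages, and MDPs precede cMoPs on the path to monocytes.

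Signal is given below as scaled signal, the background-subtracted processed signal of a probe divided by the 75th percentile of its array. The arrays of MDPs had percentiles of 67.8 to 81.0, those of cMoPs 456 to 568, and those of 32Dcl.3 cells 147 to 460. A probe counted as detected where the scanner flagged it well above background, as 37.3 to 56.2% of probes on an array were. Each cell system lay on a slide of its own, so stage cannot be told apart from slide. The sex-linked gene Xist was detected on all 4 MDP arrays and on no cMoP array, and the sex-linked gene Ddx3y the reverse. Stage cannot be told apart from this difference either. Within a slide, groups followed array position. The Irf8 probe read 12176 and 11718 in Irf8KO MDPs against 19914 and 20224 in WT MDPs, and 26210 and 26731 in Irf8KO cMoPs against 91143 and 88224 in WT cMoPs, as processed signal. It was lower in both knockouts but remained detected, and the sources used here do not say which part of the gene was deleted. On 32Dcl.3 arrays neither the Irf8 nor the Cebpa probe was detected in any group, so these probes do not check the vector labels. The progenitor markers Csf1r, Kit, Flt3 and Cd34 were detected on all 8 progenitor arrays.

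Of the 10 genes, 7 had a probe detected on both arrays of Irf8KO MDPs and 5 on both arrays of WT MDPs. In cMoPs the number was 4 in Irf8KO and 4 in WT. In 32Dcl.3 cells it was 3 with C/EBPalpha, 4 with IRF8, 4 with both factors and 4 with empty vectors. A gene was tested where its probe was detected on both arrays of at least 1 group of its system, which kept 7 of the 10 in progenitors (all but Rag1, Ebf1 and Cd79a) and 4 of the 10 in 32Dcl.3 cells (Dntt, Vpreb1, Cd79a and Cd79b). The tests were fitted with limma to 11964 genes in progenitors and 13339 genes in 32Dcl.3 cells, and adjusted p-values below are from these fits. Members kept through the group in which they were bright had to differ, so the counts describe these genes and give no support of their own.

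**Figure D1:**
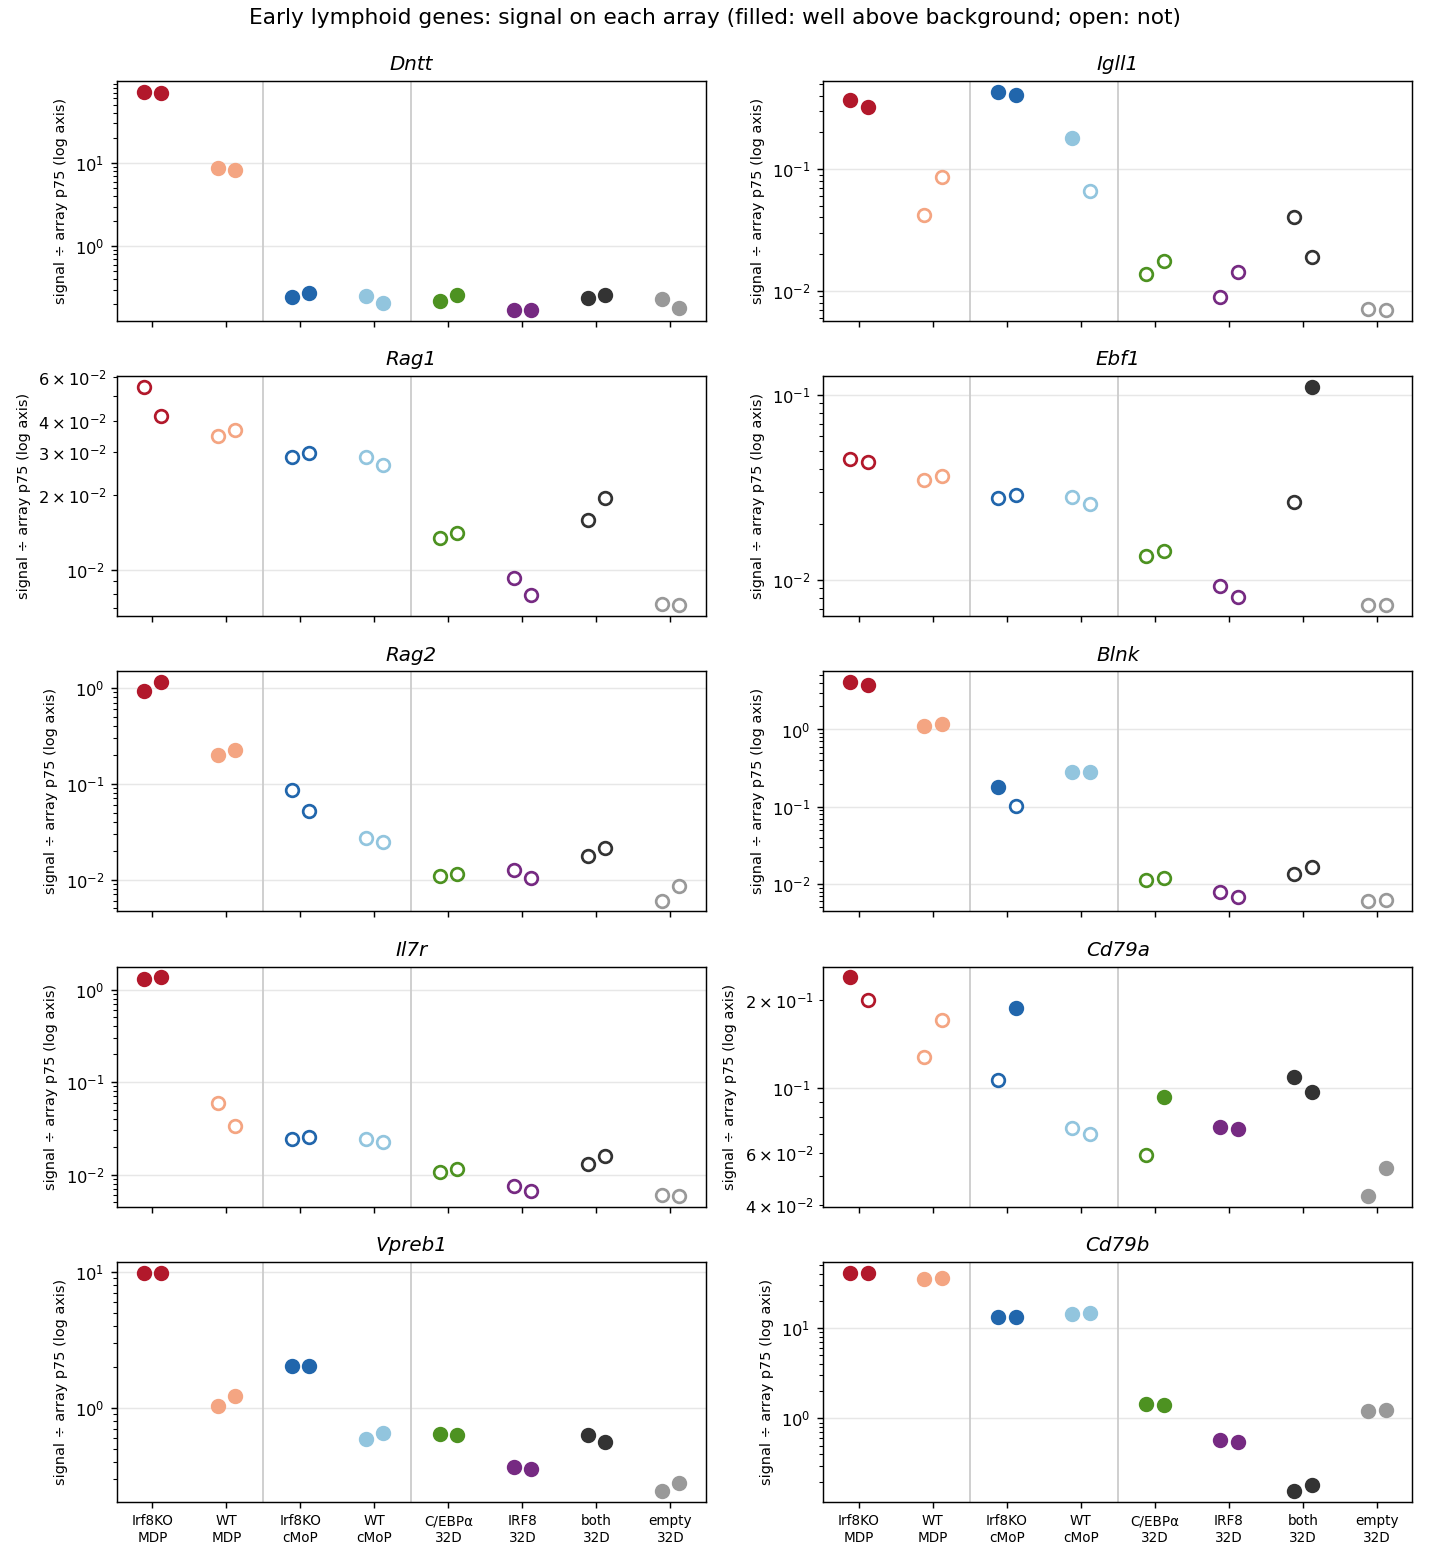
Scaled signal of the 10 early lymphoid genes (1 probe each, log axis) on all 16 arrays, by group, with 2 points per group for the 2 arrays; filled points were well above background and open points were not. Dntt, Vpreb1, Rag2, Il7r, Igll1 and Blnk sat higher on both Irf8KO MDP arrays than on both WT MDP arrays, while Cd79b was bright in all 4 progenitor groups.

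Upstream sequences are shown for pairs that lie next to each other in the genome. By RefSeq gene order (GRCm38.p6), Vpreb1 and Igll1 are adjacent coding genes on chromosome 16, Dntt and Blnk on chromosome 19, and Rag1 and Rag2 on chromosome 2. The 250 bases before the start of each gene of the first 2 pairs are printed 5′ to 3′ in the gene's direction, from RefSeq with build GRCm38.p6. Capitals mark matches on either strand to the E-box letters CAGGTG and CAGCTG, which E proteins such as E2A are known to bind.
Vpreb1 promoter, chr16:16869256-16869505 (- strand): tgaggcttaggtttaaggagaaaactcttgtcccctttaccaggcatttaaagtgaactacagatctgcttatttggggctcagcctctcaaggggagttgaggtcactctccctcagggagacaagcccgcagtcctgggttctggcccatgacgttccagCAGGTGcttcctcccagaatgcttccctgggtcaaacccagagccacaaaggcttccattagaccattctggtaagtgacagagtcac
Igll1 promoter, chr16:16863986-16864235 (- strand): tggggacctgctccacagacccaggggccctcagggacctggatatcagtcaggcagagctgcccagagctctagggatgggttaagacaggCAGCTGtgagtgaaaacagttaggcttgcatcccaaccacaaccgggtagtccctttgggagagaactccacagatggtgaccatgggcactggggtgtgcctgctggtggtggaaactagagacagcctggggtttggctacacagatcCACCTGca
Dntt promoter, chr19:41029025-41029274 (+ strand): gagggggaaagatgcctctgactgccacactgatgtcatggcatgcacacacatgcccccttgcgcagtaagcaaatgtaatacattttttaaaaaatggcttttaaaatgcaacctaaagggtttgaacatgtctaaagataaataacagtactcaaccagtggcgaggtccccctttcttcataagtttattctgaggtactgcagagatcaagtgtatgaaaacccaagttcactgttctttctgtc
Blnk promoter, chr19:40994222-40994471 (- strand): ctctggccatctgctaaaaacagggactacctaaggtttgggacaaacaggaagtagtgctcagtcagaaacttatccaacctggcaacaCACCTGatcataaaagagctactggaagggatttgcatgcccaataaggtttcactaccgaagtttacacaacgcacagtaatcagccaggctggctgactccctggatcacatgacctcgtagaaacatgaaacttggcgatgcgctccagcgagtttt

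Of the 10 genes, 9 had an upstream sequence in the RefSeq table. CAGGTG stood in 5 of these 9 (Rag1, Vpreb1, Igll1, Blnk and Cd79a), and in 17.2% of all 32851 promoters. CAGCTG stood in 2 of 9 (Rag1 and Igll1), against 13.0% of all. The C/EBP letters TTGCNNAA stood in 1 of 9 (Il7r), against 9.56%, and the interferon response element letters, a pair of GAAA with 2 bases between them, stood in 1 of 9 (Ebf1), against 2.98%. The composite of ETS and IRF sites, GGAA and GAAA with 2 bases between them, stood in none, against 2.30%, and the paired EBF1 half-sites, TCCC and GGGA with 2 bases between them, in none, against 0.779%. Both strands were searched. The 9 were counted by gene, with a match in any of its upstream sequences, and the shares of all promoters by sequence. The measures are thus unlike for a gene with several sequences, such as Ebf1. No 2 of the matches overlapped. The matches are a description of letters and show no binding.

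Dntt had the brightest response among the recombination genes in MDPs. Its scaled signal was 71.6 and 69.4 in Irf8KO MDPs, against 8.66 and 8.20 in WT MDPs. Both knockout arrays lay far above both WT arrays, and the gene was detected in each. The difference was 3.07 ± 0.093 on the log2 scale (SE, n = 2 arrays per group), or 8.37-fold, with a limma adjusted p of 2.65e-09. Only 0.443% of the genes tested had a change at least as high. Dntt is expressed in early lymphoid cells of both the B and the T lineage.

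In cMoPs the same probe was faint in both genotypes. It read a scaled signal of 0.246 and 0.271 in Irf8KO cMoPs, against 0.254 and 0.207 in WT cMoPs. These arrays overlapped, and the difference of 0.17 ± 0.093 did not pass the test (limma adjusted p = 0.147). It passed after normexp background correction (0.19, limma adjusted p = 0.0305), and was 0.32 without WT cMoP replicate 1. The change in cMoPs minus that in MDPs was -2.89 ± 0.13 (limma adjusted p = 2.88e-07).

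Rag2, the partner of Rag1 in the recombinase, was read by a single-spot probe. Scaled signals were 0.920 and 1.14 in Irf8KO MDPs, against 0.199 and 0.226 in WT MDPs, detected on all 4 arrays. The knockout arrays were higher by 2.27 ± 0.30 on the log2 scale, or 4.83-fold, with a limma adjusted p of 0.000145. In cMoPs this probe was detected on no array, with 0.0852 and 0.0519 in Irf8KO against 0.0272 and 0.0246 in WT, and no fold is given for values below background. A second Rag2 probe, spotted 10 times on each array, was well above background on no array, with 0.0434 and 0.0517 in Irf8KO MDPs against 0.0395 and 0.0356 in WT MDPs. The 2 probes thus disagree, and the change of Rag2 rests on the single-spot probe.

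Rag1, which carries the catalytic site of the recombinase, was detected on none of the 16 arrays by either of its 2 probes. The scaled signal of the brighter one was 0.0545 and 0.0418 in Irf8KO MDPs, against 0.0346 and 0.0365 in WT MDPs. Values at this level give only an upper bound and no order. Of the probes of the neighbours Rag1 and Rag2, only the single-spot Rag2 probe was thus detected, in MDPs of both genotypes. The Rag2 probe spotted 10 times was not, so expression of Rag2 rests on 1 of its 2 probes.

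Il7r, the alpha chain of the interleukin-7 receptor, was detected in Irf8KO MDPs and in no other group. It stood at a scaled signal of 1.30 and 1.35 in Irf8KO MDPs, against 0.0589 and 0.0333 in WT MDPs. Both knockout arrays were clearly above background and both WT arrays were not, so the fold is given against a floor. With WT signals raised to the faintest detected probe of each array, Il7r was 9.57-fold higher in Irf8KO MDPs. This floor is not the detection limit of every probe. Cd79a was undetected on WT MDP replicate 2 at a processed signal of 13.8, where the floor was 11.9. The test used measured signals (limma adjusted p = 3.66e-06), and the log2 change ran from 1.35 to 5.32 over the settings run. The difference has no upper bound from these arrays.

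In cMoPs the Il7r probe gave 0.0240 and 0.0255 in Irf8KO, against 0.0243 and 0.0226 in WT, none of them detected. The change in cMoPs minus that in MDPs was -4.82 ± 0.56 as measured (limma adjusted p = 0.000167). Its size depends on signals below background on 6 of these 8 arrays.

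Vpreb1 was the member that was higher in the knockout at both stages while detected on all 8 progenitor arrays. The arrays gave scaled signals of 9.81 and 9.95 in Irf8KO MDPs, against 1.03 and 1.22 in WT MDPs. The difference was 3.14 ± 0.086 on the log2 scale, or 8.79-fold (limma adjusted p = 1.27e-09). In cMoPs it was 2.06 and 2.03 in Irf8KO, against 0.598 and 0.655 in WT. The groups did not overlap at either stage, and the difference in cMoPs was 1.71 ± 0.086, or 3.26-fold (limma adjusted p = 6.39e-08). The change in cMoPs minus that in MDPs was -1.43 ± 0.12 (limma adjusted p = 2.17e-05).

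Vpreb2, a close copy of Vpreb1 with a probe of its own, moved the same way in the progenitors. Against the same kind of floor it was 5.19-fold higher in Irf8KO MDPs and 2.46-fold higher in Irf8KO cMoPs. It was detected on both arrays of the 2 knockout groups and on no WT array. In 32Dcl.3 cells with IRF8 the 2 copies differed. Vpreb2 was called lower there, by 1.54-fold against the floor (limma adjusted p = 0.0479 from measured signals), and Vpreb1 was called higher. With C/EBPalpha and with both factors Vpreb2 did not pass the test (limma adjusted p = 0.106 and 0.0553). Whether the probes also bind the other copy was not tested.

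Igll1, known as lambda5, the second chain of the surrogate light chain, was near the detection limit in MDPs. Its scaled signal was 0.366 and 0.321 in Irf8KO MDPs, detected on both arrays, against 0.0416 and 0.0860 in WT MDPs, detected on neither. Against the same kind of floor it was 2.47-fold higher in Irf8KO MDPs (limma adjusted p = 0.00104 from measured signals). No exact fold is given against undetected WT arrays, and the log2 change ran from 0.47 to 3.04 over the settings run.

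In cMoPs Igll1 was brighter in the knockout again. It read a scaled signal of 0.429 and 0.401 in Irf8KO, against 0.178 and 0.0658 in WT, where 1 of the 2 arrays was detected. The log2 difference was 1.94 ± 0.45 (limma adjusted p = 0.00445), and the WT arrays differed by more than the knockout ones. Both chains of the surrogate light chain were thus higher in the knockout at both stages. The change of Igll1 in cMoPs minus that in MDPs was -0.58 ± 0.64, with WT MDPs undetected, and did not pass the test (limma adjusted p = 0.549; 0.68, with an adjusted p of 0.0138, after normexp background correction).

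Ebf1, the transcription factor that directs early B cell genes, was detected on no progenitor array. Scaled signals were 0.0450 and 0.0432 in Irf8KO MDPs against 0.0347 and 0.0364 in WT MDPs, and 0.0277 and 0.0288 in Irf8KO cMoPs against 0.0282 and 0.0257 in WT cMoPs. No order can be read from these values.

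Blnk changed in opposite directions at the 2 stages. It stood at a scaled signal of 4.08 and 3.76 in Irf8KO MDPs, against 1.10 and 1.16 in WT MDPs. It was 0.182 and 0.101 in Irf8KO cMoPs, against 0.281 and 0.280 in WT cMoPs. The knockout arrays lay above the WT arrays in MDPs and below them in cMoPs, where 1 of the 2 knockout arrays was detected.

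The Blnk differences were 1.79 ± 0.22 in MDPs, or 3.47-fold higher (limma adjusted p = 7.26e-05), and -1.05 ± 0.22 in cMoPs (limma adjusted p = 0.00211). The change in cMoPs minus that in MDPs was -2.84 ± 0.31 (limma adjusted p = 0.000103). Blnk is also expressed in plasmacytoid dendritic cells. Of its genomic neighbour Dntt, the change was positive in MDPs and did not pass the test in cMoPs, as given above.

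Cd79b, the beta chain of the receptor's signalling pair, was abundant in every progenitor group and changed little. The arrays gave scaled signals of 41.0 and 40.1 in Irf8KO MDPs, against 35.1 and 35.7 in WT MDPs. It was 13.2 and 13.3 in Irf8KO cMoPs, against 14.4 and 14.7 in WT cMoPs. In scaled signal the arrays of a group were close to each other and the groups did not overlap. Before scaling, the processed signals in MDPs overlapped, at 2871 and 2719 in Irf8KO against 2695 and 2894 in WT. The direction in MDPs thus rests on the scaling. In cMoPs processed signals ran the same way as scaled ones, at 6069 and 6037 in Irf8KO against 8188 and 7998 in WT.

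The Cd79b differences were 0.20 ± 0.033 in MDPs (limma adjusted p = 0.000679) and -0.14 ± 0.033 in cMoPs (limma adjusted p = 0.00505), and the change in cMoPs minus that in MDPs was -0.33 ± 0.046 (limma adjusted p = 0.000568). The difference in MDPs did not pass the test under scaling to the array median (0.10, adjusted p = 0.283) or after normexp background correction (0.11, adjusted p = 0.143).

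Cd79a, the alpha chain, stayed near the detection limit. Its scaled signal was 0.239 and 0.200 in Irf8KO MDPs, the first of them detected, against 0.128 and 0.171 in WT MDPs, neither detected. It was 0.107 and 0.188 in Irf8KO cMoPs, the second detected, against 0.0734 and 0.0696 in WT cMoPs, neither detected. The gene was detected on both arrays of no progenitor group and was not tested there.

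**Figure D2:**
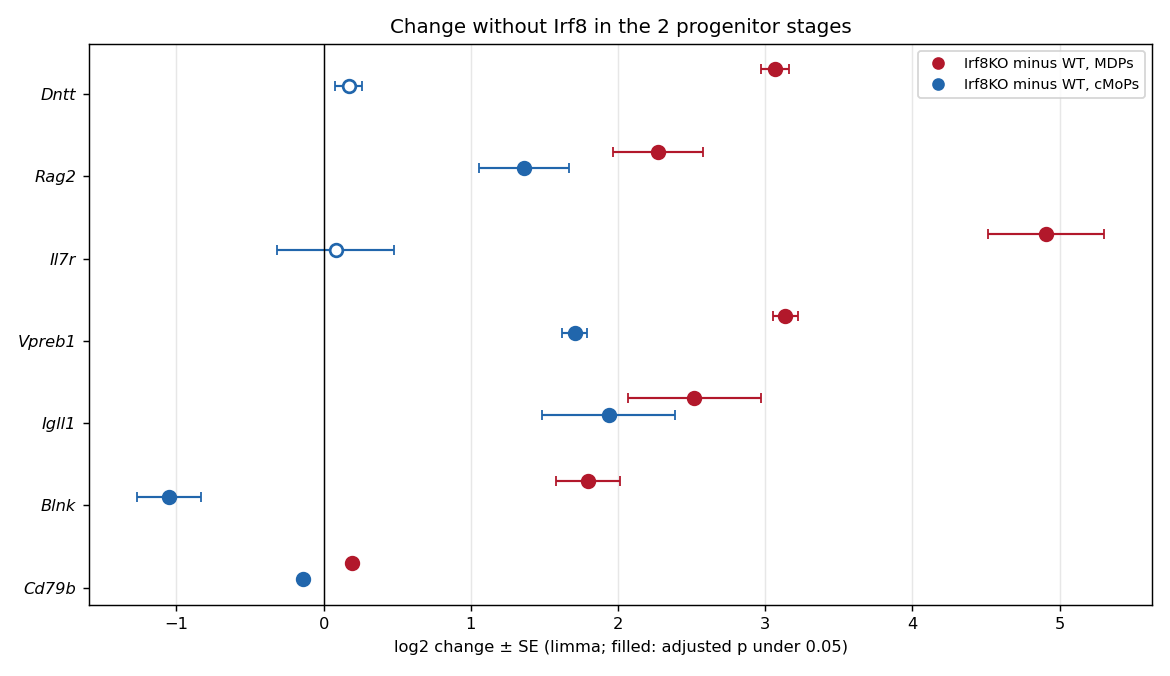
Log2 change (x axis, ± SE from limma, n = 2 arrays per group) of the 7 early lymphoid genes tested, Irf8KO minus WT, in MDPs (red) and cMoPs (blue); filled points have an adjusted p under 0.05. Dntt and Il7r passed the test in MDPs and not in cMoPs, Vpreb1 and Igll1 were higher at both stages, and Blnk was higher in MDPs and lower in cMoPs. The points of Il7r at both stages, Igll1 in MDPs and Rag2 in cMoPs are measured against undetected WT arrays.

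In MDPs, 7 of the 7 genes tested were called higher in the knockout and 0 lower (limma, and 0 at an unadjusted p under 0.05), where 22.8% of all genes tested were called higher and 28.6% lower. Of the 7, 6 were at least 2-fold higher, where 3.84% of all genes were. In scaled signal the arrays of the 2 genotypes did not overlap for any of the 7, which held upwards for 33.7% of all genes. For Cd79b the processed signals before scaling overlapped, so its call rests on the scaling. Il7r and Igll1 passed the filter only through knockout groups and Rag2 only through MDPs, by its single-spot probe alone.

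In cMoPs, 3 of the 7 were called higher (Rag2, below background in both groups, Vpreb1 and Igll1) and 2 lower (Blnk and Cd79b), where 23.0% of all genes were called higher and 31.1% lower. The change in cMoPs was called below that in MDPs for 5 of the 7 (Dntt, Il7r, Vpreb1, Blnk and Cd79b) and above it for 0 (limma, and 0 at an unadjusted p under 0.05), where 13.2% of all genes were called below and 11.6% above. In bulk samples, fewer cells of a type and less RNA per cell cannot be told apart.

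**Figure D3:**
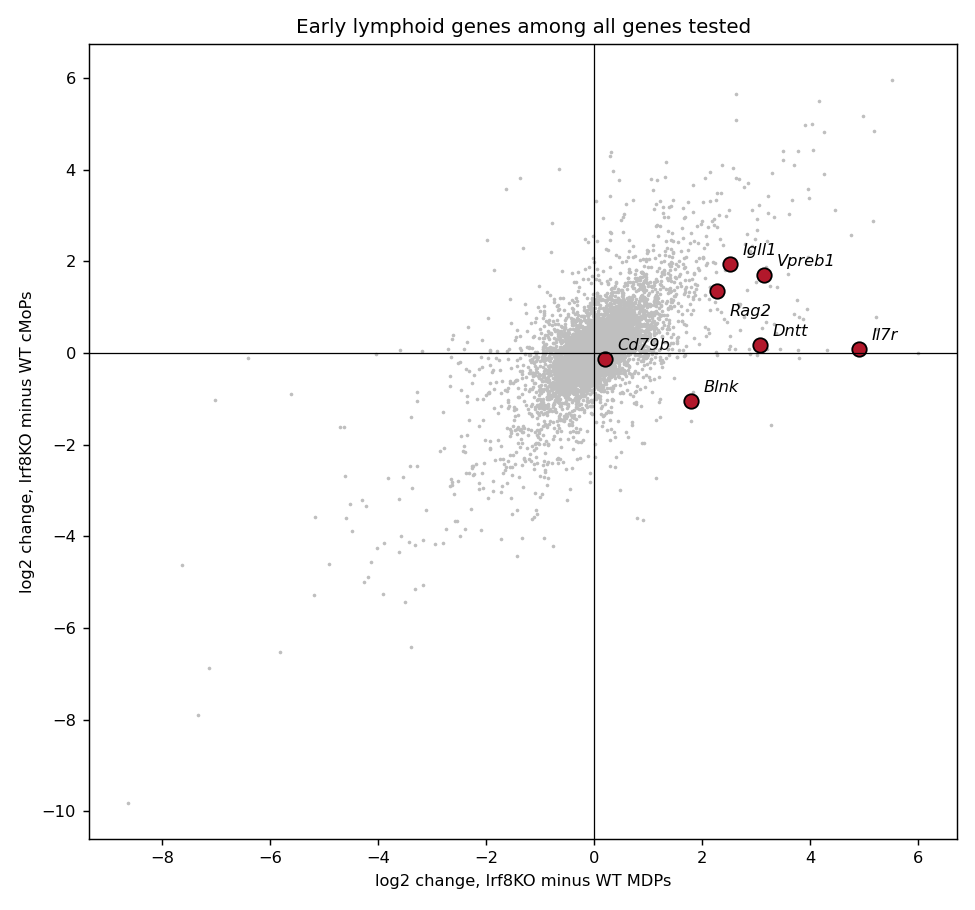
Log2 change of each of the 11964 genes tested, Irf8KO minus WT, in MDPs (x axis) and cMoPs (y axis); grey points are all genes and red points the 7 early lymphoid genes tested. Dntt, at 3.07 in MDPs and 0.17 in cMoPs, and Il7r lie along the horizontal axis, and Blnk lies below it; the place of Il7r rests on undetected signals in 3 of the 4 groups, that of Igll1 in MDPs on undetected WT signals and that of Rag2 in cMoPs on undetected signals in both.

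The genes whose changes in MDPs and in cMoPs (Irf8KO minus WT) lay nearest to those of Vpreb1 by root mean square difference were Klrb1c, Mlph and Vpreb2, and those nearest to Dntt were Xkrx, Inava and Klrd1. These 6 genes were detected on 2 to 4 of the 8 progenitor arrays, so their distances rest in part on background signal and are not given. None is named for Il7r, itself undetected on 6 of the 8 arrays.

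Other genes of the same pathways were called in both directions, as were all genes tested. In MDPs 22.8% of all genes were called higher and 28.6% lower, and in cMoPs 23.0% and 31.1%. A list here or below whose counts lie near these shares does not stand apart from all genes. Of 13 tested genes of V(D)J recombination and end joining outside the 10, 4 were called higher and 4 lower in Irf8KO MDPs, with a median change of -0.020, and 4 higher and 5 lower in Irf8KO cMoPs. Xrcc5, a subunit of the Ku complex that holds DNA ends, was higher by 1.30 on the log2 scale in MDPs. In cMoPs it was 14.4-fold higher as measured, against WT arrays on which it was not detected. Polm, a polymerase of end joining related to Dntt, fell by 0.44 in MDPs and by 0.59 in cMoPs on the log2 scale.

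Of 14 tested genes of interleukin-7 receptor and early cytokine signalling, 5 were called higher and 4 lower in Irf8KO MDPs, and 6 higher and 7 lower in Irf8KO cMoPs. Il2rg, the chain that pairs with Il7r, was higher by 1.67 ± 0.088 in Irf8KO MDPs and by 2.07 ± 0.088 in Irf8KO cMoPs on the log2 scale. Bcl2, a survival factor, fell by 1.02 in MDPs and by 1.35 in cMoPs. The Il7r partner was thus higher at both stages, while Il7r was detected in knockout MDPs alone.

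Of 16 tested genes of pre-B and B receptor signalling, 4 were called higher and 4 lower in Irf8KO MDPs, and 6 higher and 3 lower in Irf8KO cMoPs. Prkcb, a kinase downstream of the receptor, was higher by 1.46 ± 0.055 in MDPs and by 2.44 ± 0.055 in cMoPs. Cd72, a coreceptor, was higher by 1.06 in MDPs and was detected on no cMoP array. Of 20 tested lymphoid transcription factors, 7 were called higher and 4 lower in Irf8KO MDPs, and 7 higher and 10 lower in Irf8KO cMoPs. Ets1 was higher by 1.28 in MDPs and 3.18 in cMoPs, where 1 of the 2 WT arrays was detected, and Pou2f2, known as Oct-2, fell by 1.31 in MDPs and by 2.29 in cMoPs.

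Markers of other cells were read beside these genes. The B cell markers Ms4a1, Pax5 and Ebf1 were detected on none of the 4 MDP arrays. Of 10 B cell markers with a probe, Cd79a and Cd79b among them, 3 were detected on both arrays of Irf8KO MDPs and 3 on both of WT MDPs, and 6 in Irf8KO and 7 in WT were detected on neither. Their summed scaled signal was 42.1 to 43.2 in Irf8KO MDPs, against 36.9 to 37.6 in WT MDPs, and Cd79b alone gave 40.6 of the sum in Irf8KO MDPs and 35.4 in WT MDPs. Without the early lymphoid genes themselves the other 7 markers summed to 1.77 to 1.83 in Irf8KO MDPs, against 1.65 to 1.68 in WT MDPs, and to 2.78 to 2.92 in Irf8KO cMoPs, against 2.24 to 2.31 in WT cMoPs.

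The summed scaled signal of 12 early lymphoid progenitor markers, Dntt and Il7r among them, was 257 to 266 in Irf8KO MDPs, against 132 to 137 in WT MDPs. Without Dntt and Il7r it was 186 to 193 in Irf8KO MDPs, against 123 to 129 in WT MDPs. Of 9 tested from the full list, 7 were called higher and 0 lower (limma, and 0 at an unadjusted p under 0.05). Dntt and Il7r were among the 7, as was Cnn3 at 1.40 ± 0.038. In cMoPs 3 were called higher and 2 lower. For 16 plasmacytoid dendritic cell markers, Blnk among them, the sum was 245 to 251 in Irf8KO MDPs, against 181 to 188 in WT MDPs. Without Blnk and Cox6a2, left out after the values were seen, it was 190 to 197 in Irf8KO MDPs, against 176 to 183 in WT MDPs. Of 13 tested from the full list, 7 were called higher in MDPs, Blnk and Cox6a2 among them, and 2 lower. The median change of the 13 was 0.15, beside -0.025 over all genes. Cox6a2 changed by 3.80 ± 0.058, Irf7 by 1.67 ± 0.22 and Lair1 by -0.59 ± 0.065 on the log2 scale. Of 15 T cell markers, 12 in Irf8KO MDPs and 11 in WT MDPs were detected on neither array. The part that cells of these kinds have in the changes of the 10 genes was not tested.

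In 32Dcl.3 cells the array's 75th percentile differed between vectors, at 218 and 215 with C/EBPalpha, 367 and 369 with IRF8, 154 and 147 with both factors, and 460 and 445 with empty vectors. Scaled and processed signals can therefore differ in direction. Il7r, Rag1, Rag2, Igll1 and Blnk were detected on none of the 8 arrays. Ebf1 was detected on 1 array, the second with both factors, at a scaled signal of 0.110. The change of each vector group was set against the same 2 empty-vector arrays.

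In scaled signal Vpreb1 was higher with each vector than with empty vectors. It read a scaled signal of 0.641 and 0.637 with C/EBPalpha, 0.371 and 0.359 with IRF8, and 0.632 and 0.563 with both factors, against 0.247 and 0.279 with empty vectors. No array of the transduced groups overlapped with the empty-vector arrays. The log2 differences were 1.28 ± 0.098 with C/EBPalpha (limma adjusted p = 1.32e-07), 0.47 ± 0.098 with IRF8 (0.00187) and 1.18 ± 0.098 with both (2.24e-07).

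Its processed signal before scaling was 97.2 and 83.0 with both factors, against 114 and 124 with empty vectors, so the direction there rests on the scaling. It was 140 and 137 with C/EBPalpha, and 136 and 132 with IRF8. The IRF8 by C/EBPalpha interaction, the difference with both minus the sum of the single ones, was -0.57 ± 0.14 (limma adjusted p = 0.00429).

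Cd79b was lower with IRF8 and lowest with both factors. Scaled signals were 1.44 and 1.40 with C/EBPalpha, 0.574 and 0.555 with IRF8, and 0.158 and 0.182 with both, against 1.21 and 1.23 with empty vectors. The log2 difference was -1.11 ± 0.083 with IRF8 (limma adjusted p = 5.55e-07) and -2.85 ± 0.083 with both, or 7.19-fold lower (limma adjusted p = 9.21e-12). Processed signals ran the same way, at 211 and 204 with IRF8 and 24.3 and 26.8 with both, against 557 and 547 with empty vectors.

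With C/EBPalpha the difference of Cd79b was 0.22 ± 0.083 (limma adjusted p = 0.0279), and it turned to -0.086 (adjusted p = 0.417) under scaling to the array median. Before scaling the processed signal was 315 and 301 with C/EBPalpha, below 557 and 547 with empty vectors, so this direction rests on the scaling. Leaving out any 1 of the 4 C/EBPalpha and empty-vector arrays gave adjusted p-values of 0.0596 to 0.113. The interaction was -1.96 ± 0.12 (limma adjusted p = 6.73e-08). Cd79b in cells with both factors was thus below the sum of the single changes.

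The test of Dntt depended on the scaling and the background correction. It stood at a scaled signal of 0.221 and 0.260 with C/EBPalpha, 0.170 and 0.172 with IRF8, and 0.242 and 0.261 with both, against 0.231 and 0.181 with empty vectors. The differences were 0.23, -0.26 and 0.30 on the log2 scale, each ± 0.15 (limma adjusted p = 0.187, 0.185 and 0.0857). None of these passed. Processed signals of Dntt were 48.2 and 55.8 with C/EBPalpha, 62.5 and 63.2 with IRF8, and 37.2 and 38.5 with both. With empty vectors they were 106 and 80.7, so the directions with C/EBPalpha and with both rest on the scaling. With C/EBPalpha the difference passed after normexp background correction (0.46, adjusted p = 2.2e-05) and with the 75th percentile taken over detected probes (0.43, adjusted p = 0.0232). With both factors it passed under the same settings (0.69, adjusted p = 1.86e-07, and 0.58, adjusted p = 0.00389). With both factors the difference turned to -0.36 (adjusted p = 0.0387) under scaling to the array median and was 0.47 (adjusted p = 0.0288) without empty-vector replicate 1.

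Cd79a was close to the detection limit here too. The arrays gave scaled signals of 0.0593 and 0.0936 with C/EBPalpha, the second detected, 0.0736 and 0.0725 with IRF8, and 0.109 and 0.0974 with both, against 0.0429 and 0.0532 with empty vectors. The differences were 0.64 ± 0.27 with C/EBPalpha (limma adjusted p = 0.0472), 0.61 ± 0.27 with IRF8 (0.0847) and 1.11 ± 0.27 with both (0.00228). Processed signals were 12.9 and 20.1 with C/EBPalpha, 27.0 and 26.7 with IRF8, and 16.8 and 14.4 with both. With empty vectors they were 19.8 and 23.7, so the directions with C/EBPalpha and with both rest on the scaling. The call with C/EBPalpha was lost under 10 of 19 other settings, among them the deposited series values (0.015, adjusted p = 0.966), quantile normalization (0.32, adjusted p = 0.298), scaling to the array median (0.33, adjusted p = 0.275) and leaving out C/EBPalpha replicate 2 (0.31, adjusted p = 0.341). The call with both factors was lost under the first 3 of these, with adjusted p-values of 0.544, 0.122 and 0.130.

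**Figure D4:**
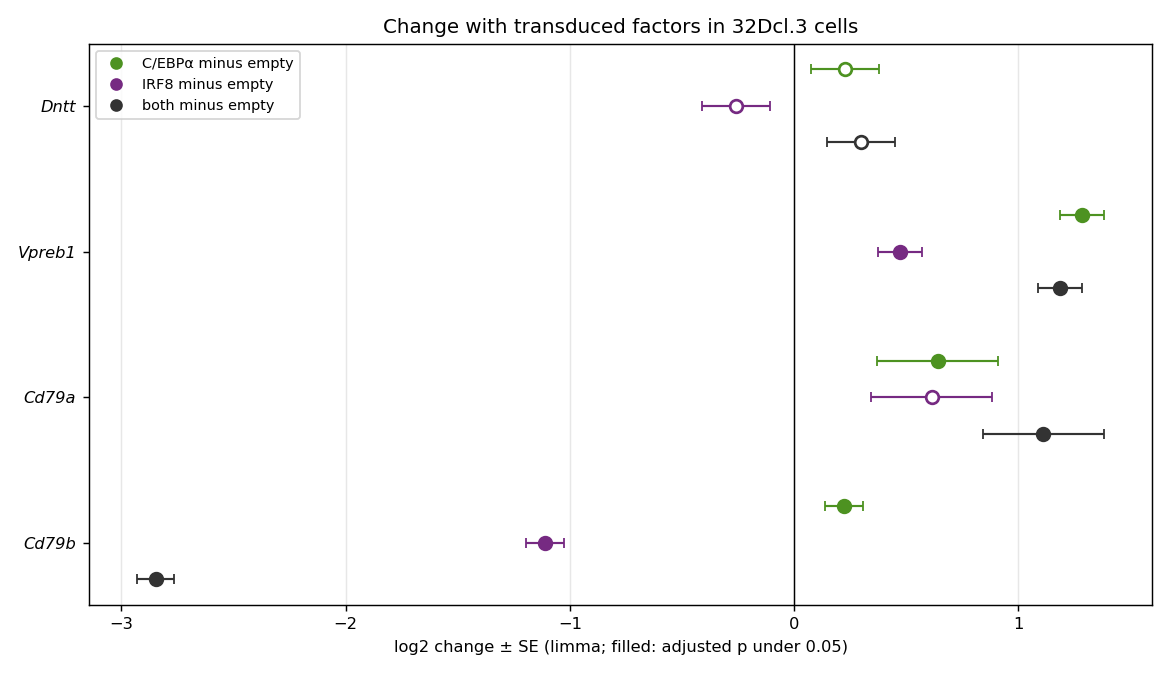
Log2 change (x axis, ± SE from limma, n = 2 arrays per group) of the 4 early lymphoid genes tested in 32Dcl.3 cells, for C/EBPalpha (green), IRF8 (purple) and both factors (black) minus empty vectors; filled points have an adjusted p under 0.05. Cd79b was lower with IRF8 and with both factors, while Vpreb1 was higher with every vector in scaled signal. Before scaling Vpreb1 was lower with both factors than with empty vectors.

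With C/EBPalpha, 3 of the 4 genes tested were called higher and 0 lower (limma, and 0 at an unadjusted p under 0.05), where 31.6% of all genes were called higher and 47.1% lower. Of these 3, Vpreb1 alone was also higher on both arrays in processed signal before scaling. With IRF8, 1 was called higher and 1 lower, where 22.7% of all genes were called higher and 25.3% lower. With both factors, 2 were called higher and 1 lower, where 38.0% of all genes were called higher and 46.8% lower. The 2 called higher, Vpreb1 and Cd79a, were lower on both arrays in processed signal before scaling, so these directions rest on the scaling. In the interaction, 0 were called higher (limma, and 0 at an unadjusted p under 0.05) and 2 lower, where 23.8% of all genes were called higher and 31.8% lower. These comparisons share the empty-vector arrays.

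The wider pathways were read in the same cells, beside the shares of all genes given above for each vector. Of 13 genes of V(D)J recombination and end joining, 6 were called higher and 6 lower with C/EBPalpha, 0 higher and 7 lower with IRF8 (limma, and 0 higher at an unadjusted p under 0.05), and 1 higher and 10 lower with both factors, among them Xrcc6 at -1.94 ± 0.027 and Atm at -1.54 ± 0.073. Of 16 genes of pre-B and B receptor signalling, 6 were called higher and 7 lower with C/EBPalpha, 11 higher and 1 lower with IRF8, and 10 higher and 4 lower with both factors, among them Cd22 at 2.24 ± 0.077 and Sh3bp2 at 2.21 ± 0.041. H2-Ob, an MHC class II gene of B cells, was higher by 3.86 ± 0.049 with both factors on the log2 scale.

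Set in order of mean scaled signal over the 8 groups, Dntt, Il7r, Rag2, Blnk, Vpreb1, Cd79a and Cd79b stood highest in Irf8KO MDPs. For Cd79b the means were 40.6 ± 0.660 in Irf8KO MDPs and 35.4 ± 0.430 in WT MDPs (SD, n = 2), and for Cd79a, near the detection limit, 0.220 ± 0.0277 in Irf8KO MDPs and 0.149 ± 0.0304 in WT MDPs. For Dntt the means were 70.5 ± 1.51 in Irf8KO MDPs and 8.43 ± 0.324 in WT MDPs (SD, n = 2), and the other 6 groups lay between 0.171 and 0.259, where neighbours in the order were not separated by more than their spread. Vpreb1 was at 9.88 ± 0.0931 in Irf8KO MDPs and 2.04 ± 0.0195 in Irf8KO cMoPs. WT MDPs, at 1.13 ± 0.134, came next. Igll1 stood highest in Irf8KO cMoPs, at 0.415 ± 0.0195, next to 0.343 ± 0.0320 in Irf8KO MDPs. For Cd79b, Vpreb1 and Cd79a the place of Irf8KO MDPs at the top rests on the scaling. Their mean processed signals in Irf8KO MDPs were 2795, 680 and 15.1. In Irf8KO cMoPs these were higher, at 6053, 934 and 67.2, and Cd79b stood at 8093 in WT cMoPs. Levels across slides are set side by side and were not tested.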

How the data were processed

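Total RNA of 16 samples was labelled with Cy3 and hybridised to an Agilent mouse array, per the labels. The deposited scanner files hold intensity values that Agilent Feature Extraction 10.7.3.1 made by subtracting background within each array, with no scaling between arrays, per the file headers. They also hold other values, flags of 0 or 1 for well above background and for outlier spots, per the file headers, and raw median intensities. The headers name build mm9. The deposited series table holds linear intensity values scaled by the authors: MDP and cMoP columns equalled the scanner values times a constant over the whole interquartile range of the ratio among detected probes (75th percentile 78.2 and 505, column medians 5.07 to 5.59 and 40.4 to 54.2), and the 32Dcl.3 columns share 1 distribution (median 19.2). It is an alternative here.

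Gene symbols came from RefSeq accessions (GRCm38.p6). Of 55681 probes 26762 had 1 symbol and 28919 had none, and 0 had several. Outlier spots were dropped, other spots averaged, and each array was scaled on the log2 scale by its own 75th percentile. Probes stayed in if well above background (over 0.5 of their spots) on both arrays of at least 1 group of their system. The brightest probe stood for a gene. lmFit and eBayes with trend (limma 3.58.1, R 4.3.3) were fitted to 8 arrays per system, with Benjamini-Hochberg adjustment and a threshold of 0.05. The comparisons were Irf8KO minus WT at each stage, the difference of these, each vector minus empty vectors, and the interaction. The script was tested on simulated data. For folds given against a floor, an undetected group's signal was raised to that of the faintest detected probe on each array. An undetected signal above this floor was left as measured. Genes named from a list are among its called genes with the largest changes, and not every list has one named; some genes are not reported here. The number of arrays limits the precision. The genes and lists were chosen with earlier results of these data known. Replicate numbers did not pair the arrays: the correlation of residuals within a number was between -0.062 and 0.071. The planned normexp setting used median spot signals with an offset of 50. Python 3.11.15 and matplotlib 3.10.9 drew the figures.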

Additional observations from a re-analysis of the deposited data

Results flagged for a closer look

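In 7 tests the effect of Irf8 loss or of a factor differed between stages or backgrounds. The change in cMoPs minus that in MDPs was -2.89 for Dntt, -4.82 for Il7r, -1.43 for Vpreb1, -2.84 for Blnk and -0.33 for Cd79b on the log2 scale, each from limma's test of the difference. Stage cannot be told apart here from slide, or from the difference in Xist and Ddx3y. In 32Dcl.3 cells the IRF8 by C/EBPalpha interaction was -0.57 for Vpreb1 and -1.96 for Cd79b. For Il7r the size rests on signals that were not well above background in 3 of the 4 progenitor groups.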

How the results depend on the processing

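Of 738 checks of a member's change under another setting, 701 kept their direction and side of the threshold. The changes of Dntt, Rag2, Il7r, Vpreb1, Igll1 and Blnk in MDPs kept theirs under all settings run, at 2.83 to 3.104, 0.93 to 2.43, 1.35 to 5.32, 2.31 to 3.26, 0.47 to 3.04 and 1.23 to 1.85, arrays of 1 slide fitted alone among them; the values of Il7r and Igll1 are set against undetected WT arrays. The sign turned for Cd79b with C/EBPalpha (-0.086) and Dntt with both factors (-0.36), scaled to the array median, and for Igll1 between stages (0.68, normexp). The cause was not tested. Members called fell to 1 with C/EBPalpha under median scaling. With no filter on dim probes they were 6 with C/EBPalpha and 9 with both factors, of 10 tested. Over all 20284 genes, 7930 were then called higher and 6229 lower with C/EBPalpha, and 9937 higher and 6181 lower with both. The 6 and the 9 include genes detected on none of the 8 arrays of 32Dcl.3 cells. With probes detected on all 8 arrays, the members called were 3 in MDPs, 2 in cMoPs and 3 between stages, of the 3 left to test. Leaving out 1 array gave 7 to 7 in MDPs, 5 to 6 in cMoPs, 5 to 5 between stages, 1 to 3 with C/EBPalpha, 2 to 3 with IRF8, 3 to 4 with both and 2 to 2 for the interaction. An array left alone in its group was assumed to vary like the others. The replicate numbers did not pair arrays. With the replicate block the members called with C/EBPalpha were 2 in place of 3, as Cd79a reached an adjusted p of 0.0508, and the other counts of members did not change. Rag2 in cMoPs missed the threshold with quantile normalization (0.78) and with undetected values set to a floor on each array (0.065). Cd79a with both factors missed the threshold under median scaling (0.46), quantile normalization (0.47) and with the deposited series values (0.19).

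Median scaling moved the median of all genes to -0.12 in MDPs and -0.34 in cMoPs, -0.23 between stages, -0.75 with both factors, -0.45 with C/EBPalpha and -0.40 for the interaction. The share of called genes that were higher was 28.7% under it in MDPs (44.4% as reported, 33.5% with normexp), 13.5% in cMoPs (42.5%), 11.9% between stages (46.8%; 59.4% with normexp), 25.2% with C/EBPalpha (40.1%), 59.4% with IRF8 (47.2%), 22.0% with both (44.9%) and 9.25% for the interaction (42.8%). Taking the 75th percentile over detected probes gave 52.9% for C/EBPalpha, 56.8% for both and 54.3% for the interaction. No count of all genes called moved by over 1.5 times. Of 3408 checks of a list's counts under another setting, 3112 stayed within 1.5 times and 296 moved further. Rag1, Ebf1 and Cd79a lie too near background in progenitors for a difference to be measured.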

Other observations

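Markers of other myeloid and lymphoid cells changed in the same progenitors. Over all genes, 22.8% were called higher and 28.6% lower in Irf8KO MDPs, and 23.0% and 31.1% in Irf8KO cMoPs. Of 12 neutrophil markers tested, 7 were called higher and 4 lower in Irf8KO MDPs, and 12 higher and 0 lower in Irf8KO cMoPs (limma, and 0 lower at an unadjusted p under 0.05). S100a8, a calcium-binding protein of neutrophils and monocytes, was higher by 3.78 ± 0.056 in Irf8KO MDPs and by 4.40 ± 0.056 in Irf8KO cMoPs on the log2 scale (SE, n = 2 arrays per group). Of 9 markers of basophils, mast cells and eosinophils, 0 were called higher (limma, and 0 at an unadjusted p under 0.05) and 8 lower in Irf8KO MDPs, and 3 higher and 4 lower in Irf8KO cMoPs. Prg2, a granule protein of eosinophils, was well above background on neither Irf8KO MDP array and on both WT MDP arrays. Of 7 erythroid markers, 1 was called higher and 6 lower in Irf8KO MDPs, and 1 higher and 4 lower in Irf8KO cMoPs. Of 5 natural killer and innate lymphoid markers, 4 were called higher and 1 lower in Irf8KO MDPs, and 2 higher and 1 lower in Irf8KO cMoPs. Id2, an inhibitor of E proteins, was higher by 1.30 ± 0.092 in Irf8KO MDPs and by 2.00 ± 0.092 in Irf8KO cMoPs.

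Xrcc5, a gene of end joining outside the 10 genes, had a processed signal of 825 and 849 in Irf8KO cMoPs, against 77.3 and 64.1 in WT cMoPs, where it was not well above background. In 32Dcl.3 cells the same probe gave 775 and 692 with C/EBPalpha, 125 and 119 with IRF8, and 64.1 and 65.0 with both factors, against 351 and 353 with empty vectors. Vpreb3, a relative of Vpreb1, was detected on neither Irf8KO MDP array, with a processed signal of 6.52 and 2.88, and on both WT MDP arrays, with 19.6 and 31.5. Vpreb2 ran the other way, detected on both Irf8KO MDP arrays, with 49.3 and 49.9, and on neither WT MDP array, with 6.79 and 7.52.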
